A study of Rattus norvegicus with 5 samples.

Results

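The cells described here are the ventricular myocytes of 2 single-cell RNA libraries from day 14 of culture, 1 from cells given TBX18 and 1 from cells given TBX18 and A83-01. A barcode was taken as a myocyte when the summed level of Tnnt2, Actc1 and Myh6, called M, exceeded 2 times the summed level of Col1a1, Col1a2 and Col3a1, called S. Levels are in CPM, the count of a gene's UMIs scaled to the same total in every cell or library. A UMI, or unique molecular identifier, stands for 1 captured RNA molecule. The rule took 3542 of the 15955 barcodes in these libraries, 1087 with TBX18 alone and 2455 with A83-01. The whole series holds 38019 barcodes in 5 libraries.

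All 5 libraries were primary ventricular cells of wild type neonatal Sprague Dawley rats (age label P2), with non-myocytes left in the culture. Each received an adenovirus, carrying GFP in the controls and human TBX18 in the others, and the A83-01 culture also carried the TBX18 virus. GFP and TBX18 were sampled at day 3 and day 14, and TBX18 with A83-01, at 0.2 µM, at day 14. The labels disagree on how long A83-01 was present: the title and description put that sample at day 14, and its treatment label speaks of 3 days. Each group was 1 library and A83-01 was not given with GFP. There is therefore no replicate check and no p-value, the drug and the library cannot be told apart, and every interval below covers counting error only, at 95%.

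TBX18 is a T-box transcription factor of the embryonic sinus node, and its forced expression is used to turn ventricular myocytes into pacemaker-like cells. A83-01 is a small molecule that blocks the kinase of the type I receptors for TGF-beta, activin and nodal (ALK5, ALK4 and ALK7), which pass their signal on by phosphorylating Smad2 and Smad3. In the heart TGF-beta is best known for driving fibroblasts to make collagen matrix. Tnnt2 encodes cardiac troponin T of the thin filament, Actc1 cardiac alpha-actin and Myh6 the fast alpha myosin heavy chain. Col1a1, Col1a2 and Col3a1 encode the chains of the fibrillar collagens I and III.

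The 250 bases before the start site of each myocyte gene of the rule are shown because these genes define the cells. They are from a list of RefSeq promoters (GRCr8) that held 4 of the 6 rule genes. The T-box motif AGGTGT, the Smad binding element CAGAC and the TATA box TATAAA were searched on both strands, with matches in capitals. None of these motifs overlaps another in the stretches shown.
Tnnt2, first of its 2 listed starts (chr13:49818873-49819122, plus strand): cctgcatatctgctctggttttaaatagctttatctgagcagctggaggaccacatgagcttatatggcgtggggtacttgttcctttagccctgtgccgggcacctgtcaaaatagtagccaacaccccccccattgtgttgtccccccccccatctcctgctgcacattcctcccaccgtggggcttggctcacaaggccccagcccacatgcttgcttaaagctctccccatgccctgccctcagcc
Actc1 (chr3:121271828-121272077, minus strand): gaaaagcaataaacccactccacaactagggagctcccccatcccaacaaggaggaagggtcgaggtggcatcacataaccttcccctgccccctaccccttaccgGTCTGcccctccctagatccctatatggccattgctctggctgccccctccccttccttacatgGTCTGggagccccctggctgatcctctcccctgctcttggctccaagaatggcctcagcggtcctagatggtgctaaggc
Myh6 (chr15:32411698-32411947, minus strand): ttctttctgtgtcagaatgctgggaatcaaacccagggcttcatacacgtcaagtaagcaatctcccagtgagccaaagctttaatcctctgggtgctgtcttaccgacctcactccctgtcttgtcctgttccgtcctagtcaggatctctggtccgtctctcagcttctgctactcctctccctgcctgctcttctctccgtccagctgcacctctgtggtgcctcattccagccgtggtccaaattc
Actc1 held CAGAC at 2 places, written as its reverse complement GTCTG, and the Tnnt2 and Myh6 stretches held none of the 3 motifs. Over the 33469 listed promoters, 42.9% held CAGAC, 11.6% AGGTGT and 12.9% TATAAA. A match is a match of letters only, and the absence of one speaks only of these bases.
The stretch before Col1a2 is given as the collagen counterpart (chr4:33518307-33518556, plus strand): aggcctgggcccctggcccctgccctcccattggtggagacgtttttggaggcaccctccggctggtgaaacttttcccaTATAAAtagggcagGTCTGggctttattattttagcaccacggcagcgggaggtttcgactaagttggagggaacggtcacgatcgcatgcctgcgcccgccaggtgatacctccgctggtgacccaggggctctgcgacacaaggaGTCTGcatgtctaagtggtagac
It held TATAAA once and CAGAC at 2 places.

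Myocytes made up 13.0% of barcodes with TBX18 alone (interval 12.3% to 13.8%) and 32.2% with A83-01 (31.2% to 33.3%). The GFP library of the same day stood at 27.7% (26.6% to 28.9%). Stromal cells, taken where S exceeded 2 times M, were 84.3% of barcodes with TBX18, 63.3% with A83-01 and 65.8% with GFP. A share of barcodes cannot tell more myocytes from fewer stromal cells. The myocytes carried a median of 15473 UMIs with TBX18 and 19707 with A83-01, and their summed UMIs were 17589304 and 48987267. The barcodes of the day 14 tables ranged from 1997 to 5597 detected genes. The 2 libraries shared 13 barcodes, 1 of them among myocytes.

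M, which the rule used, is given as a description. It had a median of 34023 CPM with TBX18, 36162 CPM with A83-01 and 35138 CPM with GFP, against 431, 352 and 430 CPM in the stromal cells of the same libraries. The rule itself sets these groups apart in M, so the values do not check the label, and no other myocyte marker could be named in the files. M was under 5000 CPM in 17 myocytes with TBX18 and 34 with A83-01, which the rule kept because their S was lower still. Of the 3 virus features that could mark the libraries, hTBX18 was at 0 UMIs in the myocytes with GFP, and EGFP was at 0 UMIs with TBX18 and 1 UMI with A83-01.

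**Figure D1:**
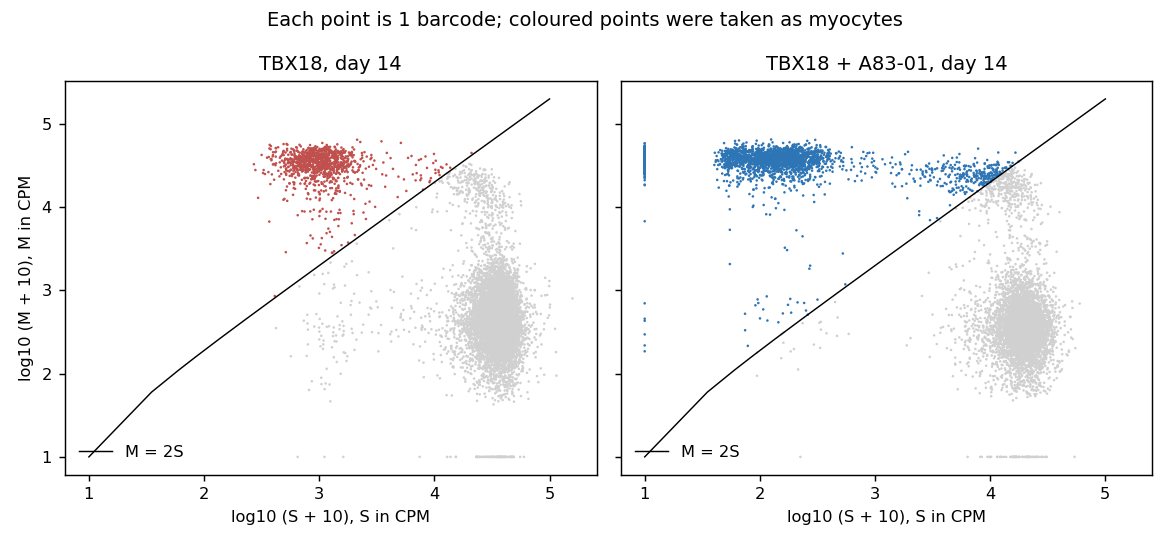
Each point is 1 barcode, with log10 of S + 10 on the horizontal axis and log10 of M + 10 on the vertical axis (both sums in CPM), for TBX18 (left) and TBX18 with A83-01 (right) at day 14. Coloured points lie above the line M = 2S and were taken as myocytes; with A83-01 most of them lie farther left than with TBX18, and 211 lie right of 5000 CPM.

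The 2 libraries differed clearly in S, which the rule used, so these values are a description. In TBX18 myocytes S had a median of 1004 CPM, and no cell was at 0. With A83-01 the median was 131 CPM and 245 cells were at 0. With GFP it was 431 CPM. The upper quartile with A83-01 was 235 CPM, and 100% of TBX18 myocytes lay above it. The main bodies of cells hardly overlapped, but the tails ran the other way: the 95th percentile of S was 2578 CPM with TBX18 and 8160 CPM with A83-01. S exceeded 5000 CPM in 33 myocytes with TBX18 (3.04%), in 211 with A83-01 (8.59%) and in 20 with GFP (1.12%).

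These high-collagen barcodes stood apart in depth too. With A83-01 they had a median of 25495 UMIs and 4520 detected genes, against 19322 UMIs and 3292 genes in the other myocytes of that library. With TBX18 the medians were 19856 against 15308 UMIs. Scrublet, which scores barcodes for holding 2 cells, marked 0% and 0.0263% of barcodes at its automatic threshold, so that threshold was not used. Among the top 6% of barcodes by its score were 7 TBX18 myocytes (0.644%) and 120 A83-01 myocytes (4.89%). What part such droplets have in the high-collagen barcodes was not tested. Close to the line, 41 myocytes with TBX18 and 197 with A83-01 had M between 2 and 4 times S, and 92 and 224 barcodes just outside had M between 1 and 2 times S. The nearest TBX18 cell inside had M of 16272 and S of 7947 CPM, and the nearest outside 28529 and 14347 CPM. With A83-01, 6 cells had M equal to 2 times S within rounding, and 3 of them fell inside.

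Each collagen was lower in the typical A83-01 myocyte, while the summed levels hardly showed it. The median of Col1a1 over cells was 424 CPM with TBX18, 49.5 CPM with A83-01 and 184 CPM with GFP. Its summed level was 586 CPM with TBX18 and 453 CPM with A83-01, a log2 ratio of -0.37 (-0.40 to -0.34). Col3a1 had medians of 346 and 58.0 CPM and summed levels of 454 and 419 CPM. Col1a2 had medians of 210 and 0 CPM and summed levels of 296 and 322 CPM, a log2 ratio of 0.12 (0.08 to 0.17). Among cells with S of at most 5000 CPM, a set chosen after seeing the data, the log2 ratio of Col1a2 was -1.46. That set is chosen on collagen itself, so a lower ratio follows in part from the choice.

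The same genes moved in the cells around them. In stromal cells the summed level of Col1a1 was 14851 CPM with TBX18 and 7625 CPM with A83-01, a log2 ratio of -0.96 (-0.97 to -0.96). Col1a2 stood at 9614 and 5152 CPM there, and Col3a1 at 11695 and 7267 CPM. The part that stromal RNA from outside the cell has in the collagen UMIs of the myocytes was not tested. Stromal cells were the larger share of the TBX18 library, as given above.

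Among the contractile genes that defined the cells, Actc1 and Myh6 were higher and Tnnt2 lower with A83-01, by 1.27-fold, 1.14-fold and 1.20-fold. Actc1 had a summed level of 9917 CPM with TBX18, 12566 CPM with A83-01 and 10403 CPM with GFP. Its medians over cells were 9656, 12908 and 10828 CPM, and 73.5% of TBX18 myocytes lay under the A83-01 median. Actc1 was the contractile gene with the larger difference, with a log2 ratio of 0.34 (0.33 to 0.35). Myh6 stood at 10255, 11703 and 12049 CPM in the same order, a log2 ratio of 0.19 (0.18 to 0.20) between TBX18 and A83-01. Tnnt2 stood at 12911, 10768 and 11561 CPM, a log2 ratio of -0.26 (-0.27 to -0.25). After the median log2 ratio of all genes, -0.36, was subtracted, Tnnt2 was at 0.10, Actc1 at 0.70 and Myh6 at 0.55, so the direction of Tnnt2 depends on the scaling. For Tnnt2 the TBX18 myocytes were shifted upward as CPM but still overlapped the A83-01 myocytes: 29.6% lay under the A83-01 median and 50.3% above its upper quartile.

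The spread of Actc1 and Myh6 over cells was narrower with A83-01 at the low end. The 5th percentile of Actc1 was 1910 CPM with TBX18, 5207 CPM with A83-01 and 3165 CPM with GFP. For Myh6 it was 1689, 4902 and 3526 CPM. For Tnnt2 it was 5354, 5469 and 6490 CPM. Between TBX18 and A83-01 the low tail thus differed for actin and myosin and hardly for troponin. Actc1 and Myh6 also rose and fell together over cells more closely with A83-01, with a Spearman rho of 0.52 over 2455 cells, against 0.30 over 1087 cells with TBX18 and 0.31 over 1782 with GFP. These genes make up M, which the rule used, so their percentiles and rhos are a description. The libraries also differ in depth and in their share of high-collagen barcodes. Cells of a library share its depth and its free RNA, so these rhos describe single libraries.

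**Figure D2:**
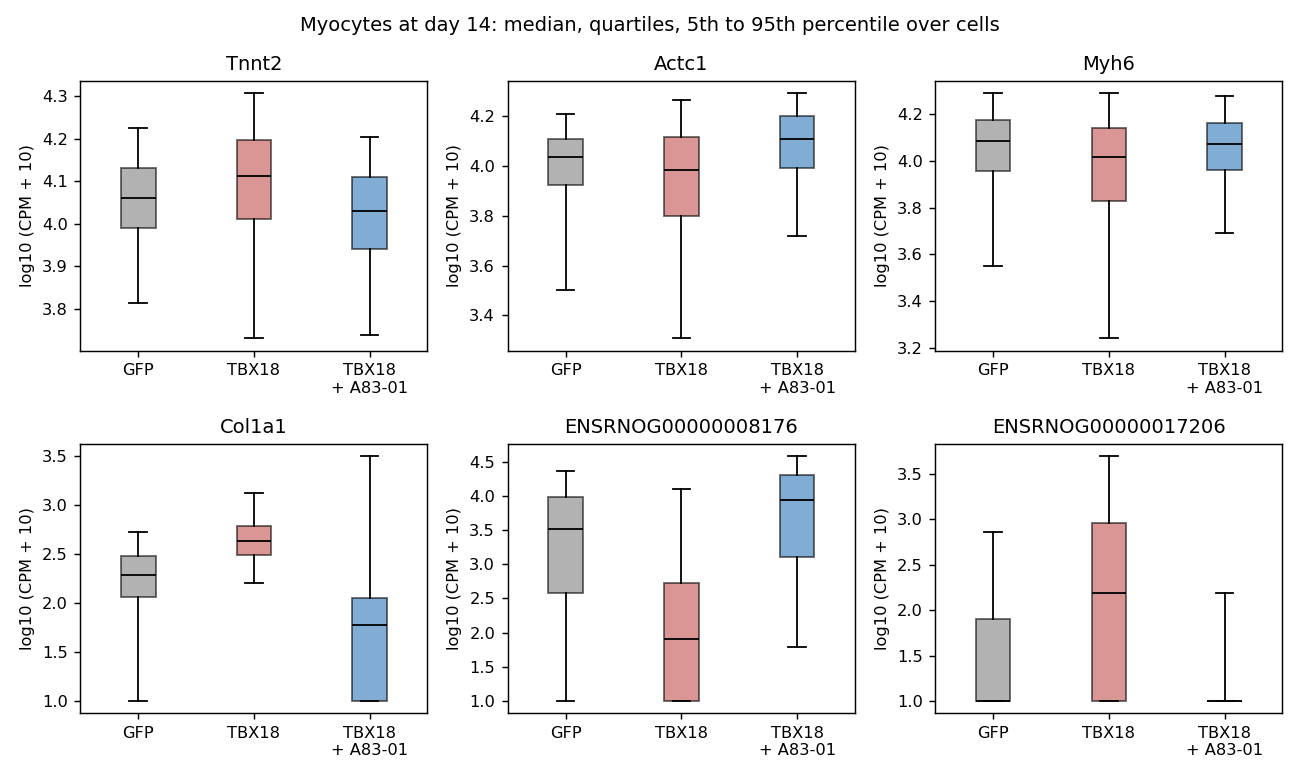
Level over myocytes at day 14, as log10 of CPM + 10, for 4 genes of the rule and 2 genes ranked high or low by ratio, in GFP (grey), TBX18 (red) and TBX18 with A83-01 (blue); boxes give median and quartiles over cells and whiskers the 5th and 95th percentiles. The contractile genes overlap widely, and Col1a1 has its lowest median and its highest 95th percentile with A83-01.

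Across all genes, the A83-01 myocytes were mostly within 2-fold of the TBX18 myocytes. Of 4590 genes whose mean over both libraries reached 20 CPM, 37 were higher past 2-fold (0.806%) and 124 lower (2.7%). A gene counted only when it passed both as it stood and after the median log2 ratio was subtracted. On totals alone 342 were lower, and on centred values alone 72 were higher. The log2 ratios had a median of -0.36 and an SD of 0.50 over genes. In stromal cells of the same libraries 131 of 5320 genes were higher (2.46%) and 296 lower (5.56%), with a median of -0.10 and an SD of 0.71. Under both scalings together, fewer genes passed 2-fold in myocytes. On totals alone the lower genes were 342 of 4590 in myocytes and 357 of 5320 in stromal cells, so that direction depends on the scaling. The difference between cell types was not tested.

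The higher genes spanned log2 ratios of 1.00 to 2.55 and the lower ones -6.89 to -1.36, with 0.5 CPM added to each level. With the 211 and 33 high-collagen barcodes left out, 31 of the 37 higher genes and 118 of the 124 lower genes were still called. Among cells with M above 20 times S, 23 and 99 were. The files give genes as Ensembl identifiers without symbols, so beyond the rule genes and the virus features 2 higher and 2 lower genes are given by identifier, as the first by the ranking rule, with no statement of what they encode.

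**Figure D3:**
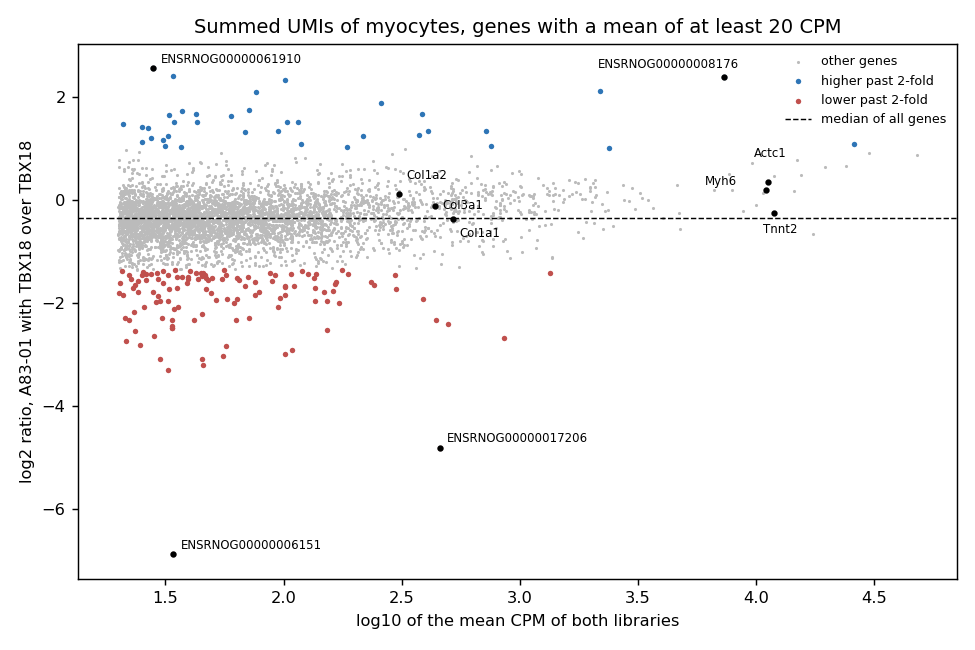
Each point is 1 of 4590 genes, with log10 of its mean level in CPM on the horizontal axis and its log2 ratio in myocytes, A83-01 with TBX18 over TBX18 (0.5 CPM added), on the vertical axis. Blue and red mark the 37 higher and 124 lower genes, black the rule genes and the 4 identifiers, and the dashed line the median of -0.36.

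ENSRNOG00000008176 was the more abundant of the 2 higher genes given by identifier. Its summed level in myocytes was 2356 CPM with TBX18, 12239 CPM with A83-01 and 6766 CPM with GFP at day 14, and 21221 CPM with GFP and 30253 CPM with TBX18 at day 3, in tables made separately. TBX18 alone at day 14 was thus the lowest of the 5 libraries. The log2 ratio between A83-01 and TBX18 was 2.38 (2.36 to 2.39), and 2.42 without the high-collagen barcodes. The difference lay in most cells: the median was 70.3 CPM with TBX18 and 8736 CPM with A83-01, and 93.3% of TBX18 myocytes lay under that median. With every cell thinned to 5000 UMIs, 43.1% of TBX18 myocytes and 89.1% of A83-01 myocytes held a UMI of ENSRNOG00000008176, and 60.3% and 97.3% before thinning. The stromal shares were 15.2% and 38.8% after thinning, at median depths of 15502 and 16547 UMIs, so the myocyte shares stood above the level in cells of another type. In the TBX18 library, the top 11 cells held 23.7% of its UMIs.

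ENSRNOG00000017206 went the other way. Its summed level in myocytes was 885 CPM with TBX18, 31.0 CPM with A83-01 and 158 CPM with GFP at day 14, and 32.7 CPM with GFP and 18.6 CPM with TBX18 at day 3. TBX18 alone at day 14 was the highest of the 5 libraries. The log2 ratio was -4.83 (-4.91 to -4.76). After thinning, 53.4% of TBX18 myocytes held a UMI (66.2% before), against 7.18% of stromal cells. With A83-01 the share was 8.43% (17.3% before), against 8.89% of stromal cells, so no more myocytes than stromal cells held one. The UMIs were uneven over A83-01 myocytes, with 38.4% of them in 25 cells. In stromal cells the summed level was 36.3 CPM with TBX18 and 54.3 CPM with A83-01, so the lower level was seen in myocytes and not in stromal cells. Within the TBX18 library, the 720 myocytes with a UMI of ENSRNOG00000017206 had a median of 50.2 CPM of ENSRNOG00000008176, and the 367 without had 225 CPM. The same split gave 1408 and 4245 CPM with GFP, and 3584 and 9912 CPM with A83-01.

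ENSRNOG00000006151 nearly vanished. Its summed level was 68.4 CPM with TBX18 (1203 UMIs) and 0.0817 CPM with A83-01 (4 UMIs in 2 cells), and 6.60 CPM with GFP. At day 3 it stood at 102 CPM with GFP and 10.9 CPM with TBX18. The log2 ratio was -9.71, with a wide interval of -11.59 to -8.35 set by those 4 UMIs. ENSRNOG00000006151 was a gene of few cells: 8.56% of TBX18 myocytes held a UMI after thinning (11.9% before), against 0.384% of stromal cells, and the top 11 cells held 50.7% of its UMIs. With A83-01, 1 of 2455 myocytes held one after thinning. In stromal cells ENSRNOG00000006151 was at 1.35 CPM with TBX18 (155 UMIs) and at 0 UMIs with A83-01, so its near absence was not limited to myocytes.

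ENSRNOG00000061910 headed the higher genes by rank, and its ratio rested on the high-collagen barcodes. Its summed level in myocytes was 7.85 CPM with TBX18, 48.5 CPM with A83-01 and 7.46 CPM with GFP, and at day 3 7.02 CPM with GFP and 19.3 CPM with TBX18. In stromal cells it was far higher, 304 CPM with TBX18 and 1198 CPM with A83-01. The log2 ratio in myocytes was 2.63 (2.38 to 2.89). Of its 2374 UMIs in A83-01 myocytes, 1938 were in the 211 barcodes with S above 5000 CPM, at 378 CPM, against 9.94 CPM in the rest. With TBX18 the 33 such barcodes stood at 50.5 CPM and the rest at 6.15 CPM, so the level within high-collagen barcodes differed as well as their number. Without those barcodes the log2 ratio of ENSRNOG00000061910 was 0.69. It was 0.21 with M above 20 times S, and 1.64 without the top 6% of barcodes by Scrublet score. Sets limited by S are chosen on collagen, and this gene is higher in stromal cells. A lower ratio in them therefore follows in part from the choice. The thinned share of cells with a UMI of ENSRNOG00000061910 was 3.13% and 8.39% in myocytes against 42.9% and 79.3% in stromal cells, and so below the stromal level in both libraries.

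**Figure D4:**
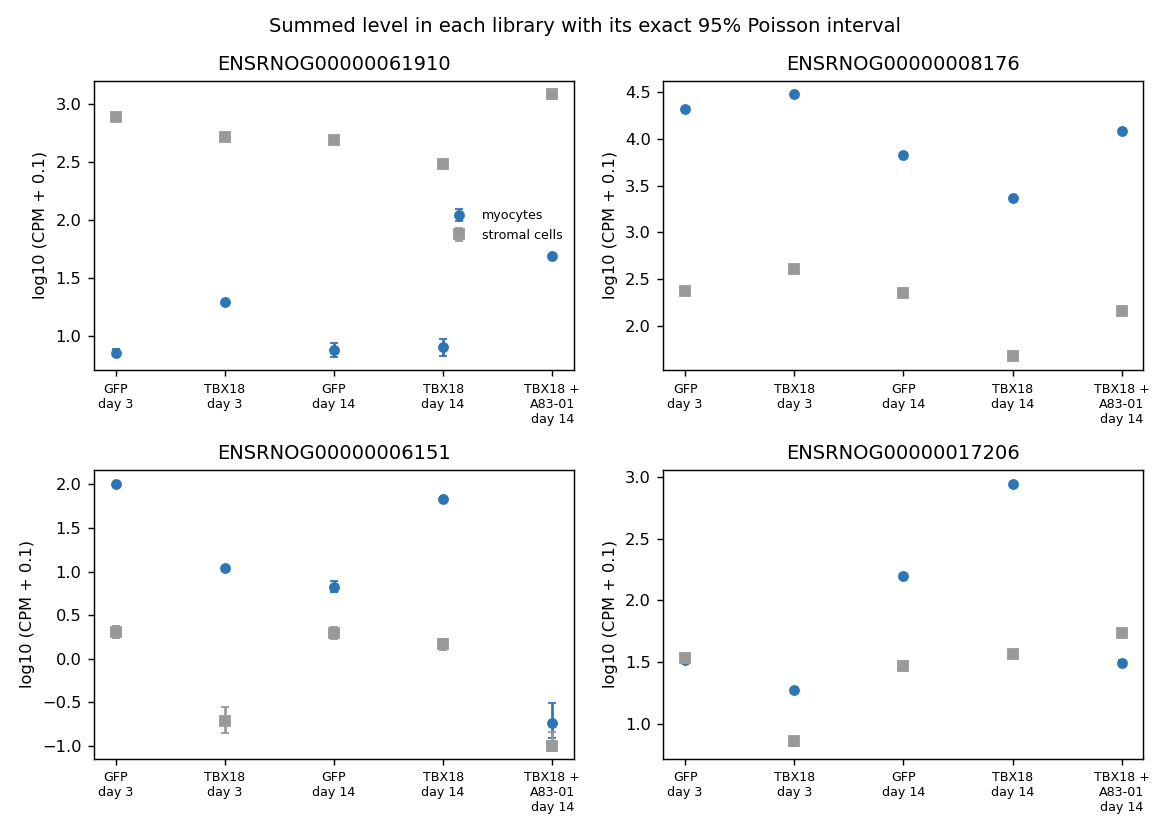
Summed level of 4 genes, as log10 of CPM + 0.1, in the myocytes (circles) and stromal cells (squares) of all 5 libraries, with exact Poisson intervals that are mostly smaller than the points. ENSRNOG00000008176 is lowest and ENSRNOG00000017206 highest in TBX18 myocytes at day 14, and ENSRNOG00000061910 is higher in stromal cells than in myocytes throughout.

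Genes were also grouped by libraries outside the comparison, with the rule genes and the virus features left out. Myocyte-leading genes were at least 4-fold higher in myocytes than in stromal cells in both GFP libraries, stromal-leading genes at least 4-fold lower, and shared genes within 2-fold. Of 634 myocyte-leading genes 418 passed the level filter, with 10 higher (2.39%) and 13 lower (3.11%) past 2-fold, against 0.806% and 2.7% over all genes. Their median log2 ratio was -0.17, beside -0.36 over all genes, and 273 of the 418 lay above that value. The median of this class is at 0.19 after centring, so only its place relative to all genes holds under each scaling. Of 1008 stromal-leading genes 165 passed the filter, with 8 higher (4.85%), 16 lower (9.70%) and a median of -0.54. Of 2240 measured shared genes 6 were higher (0.268%) and 33 lower (1.47%), with a median of -0.38.

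The values of the stromal-leading genes, which like the collagens of S are higher in stromal cells, changed when the high-collagen barcodes were left out, a set chosen on S. Then 139 were measured, 2 were higher and 38 lower (27.3%), and their median was -0.83. Over all genes in those cells, 33 of 4534 were higher and 155 lower, with a median of -0.39. Stromal-leading genes took 3.89% of myocyte UMIs with TBX18, 2.79% with A83-01 and 2.13% with GFP. Per cell, the median share was 3.03%, 1.75% and 1.86%. As for the collagens, what part stromal RNA from outside the cell has in these shares was not tested.

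The 20 genes of the highest mean level over the myocytes of both libraries took a larger share of myocyte RNA with A83-01 than with TBX18 alone. They were picked in the libraries compared and include genes of the rule, so their shares are a description. Log2 ratios were above 0 for 16 of them and below 0 for 4, with the highest at 2.38. Together these genes took 26.1% of myocyte UMIs with TBX18, 37.4% with A83-01 and 33.6% with GFP. Over cells the medians were 27.2%, 39.5% and 34.5%, and 91.6% of TBX18 myocytes lay under the A83-01 lower quartile of 34.5%. The cells still overlapped, since the A83-01 5th percentile was 23.0%. Of these genes 15 were myocyte-leading, and 3 others were the contractile genes of the rule, which the classes leave out. In stromal cells the same genes took 6.45% and 6.82%. Myocyte-leading genes as a whole took 32.9% of UMIs with TBX18, 44.0% with A83-01 and 41.3% with GFP.

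Fewer kinds of RNA were seen per A83-01 myocyte at equal depth. Thinned to 5000 UMIs, the median myocyte held 1802 genes with TBX18, 1489 with A83-01 and 1621 with GFP. The quartiles did not overlap between the 2 TBX18 libraries, at 1715 to 1907 and 1412 to 1594 genes. Stromal cells held 1972, 1828 and 1834. No myocyte was left out of this count for low depth.

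**Figure D5:**
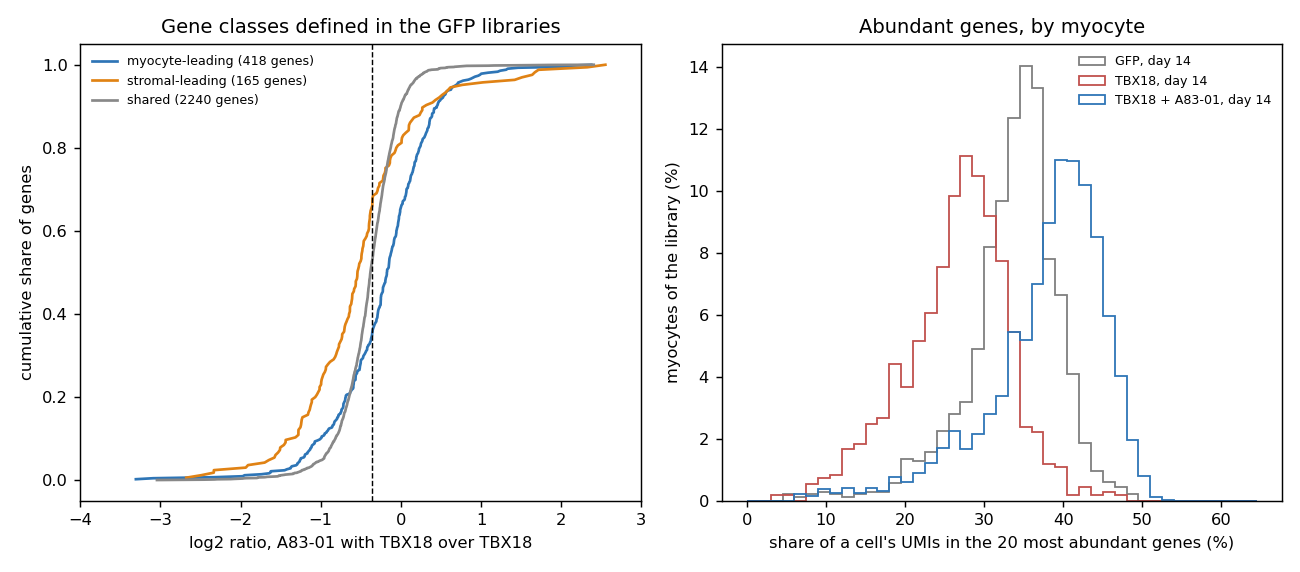
Left, cumulative share of genes by log2 ratio in myocytes, A83-01 with TBX18 over TBX18, for myocyte-leading, stromal-leading and shared genes, with the median of all genes dashed. Right, share of each library's myocytes by the percentage of a cell's UMIs in the 20 most abundant genes, whose median is 27.2% with TBX18, 34.5% with GFP and 39.5% with A83-01.

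Further classes were drawn from the difference between TBX18 and GFP at day 3, and from time in culture with GFP. At day 3, 188 of 4082 genes were higher with TBX18 than with GFP in myocytes (4.61%) and 133 lower (3.26%). In the A83-01 comparison, genes higher with TBX18 at day 3 had 165 of 184 measured, 8 higher (4.85%) and 11 lower (6.67%), against 0.806% and 2.7% over all genes. Their median log2 ratio was -0.38, beside -0.36 for all genes. Genes lower with TBX18 at day 3 had 87 of 132 measured, 0 higher and 13 lower (14.9%), with a median of -0.56. The median of that class lay below that of all genes. Between day 3 and day 14 with GFP, 432 of 4353 genes were higher (9.92%) and 346 lower (7.95%). Genes higher at day 14 had 423 measured in the A83-01 comparison, 18 higher (4.26%), 24 lower (5.67%) and a median of -0.35. Genes lower at day 14 had 256 measured, 7 higher (2.73%), 22 lower (8.59%) and a median of -0.32. The medians of both lay close to that of all genes, while their shares past 2-fold were above the 0.806% and 2.7% of all genes in each direction.

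The transgene was at a low level in both libraries, somewhat lower with A83-01 on totals and level with TBX18 alone after centring. In myocytes hTBX18 had 160 UMIs with TBX18 (9.10 CPM) and 340 with A83-01 (6.94 CPM), a log2 ratio of -0.39 (-0.67 to -0.11), or -0.03 after the median was subtracted. ZsGFP, a green fluorescent protein read as a virus feature, stood at 8.19 and 5.94 CPM. In stromal cells hTBX18 stood at 1.19 and 0.955 CPM. After thinning, 4.78% of TBX18 myocytes and 2.93% of A83-01 myocytes held an hTBX18 UMI (10.1% and 8.80% before), against 0.598% and 0.477% of stromal cells. At this depth a cell without such a UMI cannot be called free of the virus. Of the 110 TBX18 myocytes with an hTBX18 UMI 38.2% also held ZsGFP, against 6.04% of the others. With A83-01 it was 31.9% of 216 against 5.00%.

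The 3 contractile genes and the 4 genes given by identifier kept the direction of their difference in cells with and without a transgene UMI. ENSRNOG00000008176 had a log2 ratio of 3.22 (3.16 to 3.28) among the 169 TBX18 and 328 A83-01 myocytes with a UMI of hTBX18 or ZsGFP, and 2.28 (2.26 to 2.29) among the 918 and 2127 without. ENSRNOG00000017206 had ratios of -4.44 and -4.93. Actc1 had ratios of 0.31 and 0.34, Tnnt2 -0.25 and -0.27, and Myh6 0.06 and 0.21. Cells with a transgene UMI were deeper, at a median of 17931 UMIs with TBX18 and 22392 with A83-01.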

How the data were processed

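Cells were captured with the 10x Chromium Next GEM Single Cell 3' v3.1 kit, per the labels' protocols. STAR 2.7.8a, Partek and the build Rnor_6.0 are named in the submitters' processing notes, without role or order; filters are not given in the sources used here. Per the values of the deposited tables, the authors gave day 14 as log2(CPM + 1) per cell and gene, and day 3 as estimated counts, a few of them fractional. For day 14, UMIs were recovered from the step of 1 UMI in each cell (over 99.6% whole within 0.05), where summed counts had been planned.

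UMIs were summed over the myocytes of each library, scaled to CPM, and compared as log2 ratios with exact conditional intervals; levels have exact Poisson and shares Clopper-Pearson intervals. Ratios of single genes had no pseudocount, except in some of the alternative settings given at the end. Calls used 0.5 CPM, a mean of at least 20 CPM and 2-fold. Median UMIs per barcode ran from 15610 to 28566 over the libraries. Named genes were the first by the interval bound nearest 0, rule genes left out, plus rule genes and virus features. The cells, classes and lists were chosen with earlier results of these data known. Of 16894 identifiers 0 matched a symbol table, so the planned pathway and cell type lists could not be applied. Ratios were tested on simulated counts, and UMI recovery on TBX18 day 3 counts rewritten as log2(CPM + 1). Doublets were not removed. Python 3.11.15, numpy 2.4.6, scipy 1.17.1 and scanpy 1.11.5 were used.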

Additional observations from a re-analysis of the deposited data

How the results depend on the processing

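No paired analysis was possible because each group was 1 library; leaving out a replicate was not possible either. Of 394 values under alternatives, 244 stayed within counting error or 1.5 times the count, 135 moved and 15 changed sign. Some of the 244 could not change: for the medians, the SD and single genes, totals alone repeats the main setting. The count of higher genes, 37, became 72 on centred values, 69 without the 20 most abundant genes, 87 at a mean of 5 CPM, 16 at 100 CPM, 203 with no filter, 92 at 1.5-fold and 6 at 4-fold. The count of lower genes, 124, became 342 on totals alone, 187 in cells with M of at least 5000 CPM whatever S, 344 at 5 CPM, 40 at 100 CPM, 714 with no filter, 411 at 1.5-fold and 20 at 4-fold. The myocyte share became 14.1% with TBX18 and 35.2% with A83-01 for M above 1 times S, 16.8% and 36.5% for M of at least 5000 CPM, and 10.2% and 27.9% for M above 20 times S; with A83-01 it was 29.2% for M above 5 times S.

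Centring turned Tnnt2 to 0.10, Col3a1 to 0.25 and the medians of myocyte-leading genes to 0.19, of genes higher at day 14 to 0.013 and of genes lower at day 14 to 0.038. Leaving out the 20 most abundant genes turned Col3a1 to 0.12 and the myocyte-leading median to 0.052. Col1a2 turned negative with M above 1, 5 and 20 times S (-0.16, -1.52 and -2.70), with M of at least 5000 CPM (-1.35), without the top 6% by Scrublet score (-0.68), with 10000 to 20000 UMIs (-1.09), with S of at most 5000 CPM (-1.46) and as a mean of single cells (-0.15). With the stromal profile subtracted to the collagen level, 33 genes were higher and 162 lower, and the stromal-leading median was -0.91. Col1a1 was then at -6.29, Col1a2 at 5.02, Col3a1 at -5.54 and ENSRNOG00000061910 at 0. The subtraction left nothing of each collagen in either the TBX18 or the A83-01 library, and nothing of ENSRNOG00000061910 in both. These ratios were taken with 0.5 CPM added, so their sizes, and the 0, are not measured differences. The subtraction is scaled to the collagens, so it does not measure the part of outside RNA in them. The set with S of at most 5000 CPM, a subtraction of the stromal profile and the share with M above 20 times S were chosen after seeing the data. Apart from these settings the cause of each change was not tested. A gene of a few UMIs, such as ENSRNOG00000006151 with A83-01, has a ratio known only within its interval.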
